A study of Sus scrofa with 4 samples.

Results

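Pre-mRNA splicing genes and related RNA-binding protein genes were examined in porcine granulosa cells (GCs) matured with or without non-esterified fatty acids (NEFAs). The genes were taken by symbol. They comprise all those whose symbol starts with SNRP, SRSF or its older form SFRS, HNRNP or HNRP, SF3A, SF3B, PRPF, LSM followed by a digit, or RBM followed by a digit. This gave 68 genes of the 10022 that the array annotation names, and all 68 were measured on every array, as were 9962 of the named genes. The 7 families held 25 RBM, 10 HNRNP, 9 PRPF, 9 SNRP, 8 SF3, 4 LSM and 3 SRSF genes. The 3 SRSF genes carry SFRS symbols in the annotation and are named here by their current symbols. Where a gene had several probes, the brightest stood for it.

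Introns are removed from pre-mRNA by the spliceosome, which is built on each transcript from small nuclear ribonucleoproteins (snRNPs), each holding an RNA, a ring of Sm or LSM proteins and specific proteins. SR proteins and heterogeneous nuclear ribonucleoproteins (hnRNPs) bind the transcript and help to decide which exons are kept, and proteins with RNA recognition motifs, many of them named RBM, act in splicing, ribosome assembly and RNA decay. In growing somatic cells such as GCs the core proteins are made in nearly all cells and in large amounts.

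The GCs came from follicles of slaughterhouse ovaries and were grown as monolayers for 7 days, after which cumulus-oocyte complexes (COCs) from another batch of ovaries were placed on them for the 44 h of in vitro maturation (IVM). In the NEFA group the maturation medium held palmitic, stearic and oleic acid, and in the control group it held the same amounts of albumin and ethanol without the fatty acids. Both groups received epidermal growth factor and porcine follicular fluid throughout, and FSH, LH and dibutyryl cyclic AMP until the medium was changed at 22 h. The COCs were removed before lysis, the 4 wells of a plate were pooled as 1 replicate, and each of 4 replicates, collected on different days, gave 1 NEFA RNA and 1 control RNA that were hybridised together on 1 two-colour array. The arrays A, B, C and D are replicates 1, 2, 3 and 4. A lower signal in such bulk RNA can come from fewer cells that make a transcript or from less RNA per cell, and the 2 cannot be told apart.

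Values are log2 ratios of NEFA to control, so that a value above 0 is a higher signal in the NEFA culture. A gene was called higher or lower when limma gave an unadjusted p under 0.05 and the ratio passed 1.2-fold (0.26 on the log2 scale), which is the criterion of the study. The direction of the ratios is not settled. The titles of the samples give the opposite dyes to their channel descriptions, and the channel descriptions were followed. With them, 4 of 5 measured genes whose array direction a legend of the study states took that sign, against 1 of 5 with the titles. The reading by titles would turn every sign below, and counts of higher and lower genes would change places.

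Arrays A and B, of the same dye orientation, opposed each other. Over all probes their red to green log ratios had r = -0.74, while those of arrays C and D had r = 0.47. In red to green ratios array A opposed the other 3. In ratios of NEFA to control as headed it was array B that opposed the others, with r = -0.75, -0.38 and -0.26 with A, C and D over the 9962 genes, while A had r = 0.35 with C and 0.27 with D. With the exchange, A and B take the same direction and both oppose C and D, which have the other dye orientation. In array A the median local background was 117 (green) and 63.1 (red), whereas arrays B to D had 60.9 to 75.0 in the green and 116 to 173 in the red. Over 58 control probe identifiers its red to green ratio had r = -0.99 with the mean of the other arrays. Whether the 2 intensity columns of array A were exchanged was not settled, so the main results are given in both readings: with the columns as headed, and with the channels of array A exchanged. The exchange turns the sign of array A and leaves arrays B to D as they are. Because arrays of 1 dye orientation opposed each other, no direction of a single gene below is settled with the columns as headed.

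Of the 68 genes, 43 were above background, meaning that at least 1 of the 2 RNAs exceeded it on every array, compared with 2913 of all 9962 genes (63.2% against 29.2%). The share was 90.0% for the HNRNP genes and 77.8% for both the SNRP and the PRPF genes, and 44% for the RBM genes. The transcripts of the splicing machinery were detected in these cells more often than those of named genes in general, and the RBM genes least often among the 7 families.

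With the columns as headed, none of the 68 genes was higher and none was lower, while 0.803% of all genes were called (0.281% higher and 0.522% lower). Only RBM24 had an unadjusted p under 0.05, and no adjusted p of limma (Benjamini-Hochberg over all probes) was under 0.05. The fitted ratios ran from -0.28 to 0.30, with a median of -0.03 beside -0.02 for all genes. A ratio below 0 was found for 47 of the 68 genes (69.1%), compared with 58.1% of all genes. Among genes above background the shares were 76.7% of the members and 65.8% of all genes. The median half-width of the 95% interval was 0.26, about the size of the 1.2-fold criterion, so changes of that size were within the error for a typical member. Only HNRNPU and RBM24 had the same sign on all 4 arrays, 2.94% of the members against 7.67% of all genes.

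With the channels of array A exchanged, 1 gene was higher and 5 were lower. RBM19 was higher, and LSM6, SNRPD1, SNRPF, SNRPB2 and SF3B1 were lower. These 6 genes are 8.82% of the members, compared with 4.17% of all genes (1.08% higher and 3.08% lower). All 6 were above background, and among genes above background the share was 14.0% for the members and 11.8% for all genes. That gap was narrower than the gap over all genes, and the members were detected more often. No member passed after adjustment over all probes, the smallest adjusted p being 0.635. The median ratio was -0.01, as for all genes (-0.01), and 38 members (55.9%) were below 0, compared with 54.0% of all genes. The same sign on all 4 arrays was found for 15 members (22.1%) against 13% of all genes, and the corresponding shares above background were 30.2% and 23.2%. Between the readings 27 of the 68 genes changed sign, beside 3690 of all 9962 genes. Under the titles of the samples the counts with the exchange would be 5 higher and 1 lower.

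**Figure D1:**
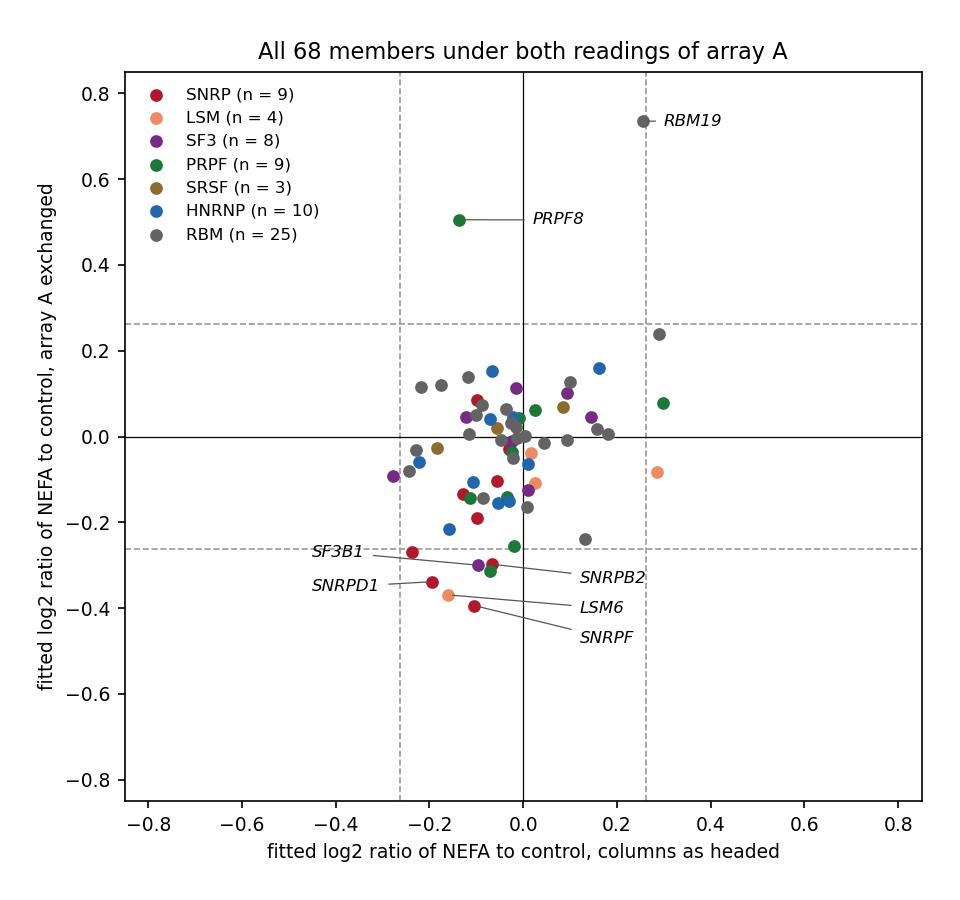
Fitted log2 ratio (NEFA over control) of 68 genes with the columns as headed (x axis) and with the channels of array A exchanged (y axis), coloured by family, with dashed lines at 1.2-fold. RBM19 at 0.74 and PRPF8 at 0.51 lie apart on the y axis, and the 5 genes called lower on that axis lie between -0.39 and -0.30.

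The SNRP genes, which encode Sm ring proteins and specific proteins of the U1 and U2 snRNPs, were the family with the lowest median. It was -0.10 with the columns as headed, where all 9 were below 0 and none passed the criterion, and -0.19 with the exchange, where 8 of 9 were below 0, 5 of 9 had the same sign on all 4 arrays and 3 were called lower, beside 3.08% of all genes and 9.47% of those above background. Of the 9 SNRP genes 7 were above background. Of all genes, 58.1% were below 0 as headed and 54.0% with the exchange, and of those above background 65.8% and 59.9%. With the exchange the same sign on all 4 arrays was found for 13% of all genes and 23.2% of those above background. On arrays C and D, which are the same in both readings and share 1 dye orientation, all 9 SNRP genes were below 0. On each of these arrays 44 of the 68 members were below 0. Of all 9962 genes, 5986 were below 0 on C and 5725 on D, and of the 2913 above background 2031 and 1793 were. On array B 5 of 9 were below 0, and on array A as headed 1 of 9 was. The median on single arrays was -0.08 on B, -0.19 on C and -0.15 on D, whereas it was 0.10 on A as headed. The 9 genes share the same 4 pairs of RNA, so their agreement on an array is not replication.

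SNRPD1, an Sm protein found in the ring of all major spliceosomal snRNPs except U6, had log2 ratios of 0.29, -0.23, -0.27 and -0.57 on arrays A, B, C and D as headed. Its NEFA signal was 13.16, 12.86, 12.84 and 13.41 in log2 units and its control signal was 12.87, 13.09, 13.11 and 13.98 on the same arrays. Array A alone was above 0, and the exchange turned it to -0.29, so that all 4 arrays were then below 0. The fitted ratio was -0.19 ± 0.14 (SE, n = 4) as headed and -0.34 ± 0.09 (limma, unadjusted p = 0.00838) with the exchange. Without array A it was -0.36 ± 0.12 (unadjusted p = 0.0243), which still passed the criterion.

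SNRPF, another Sm ring protein, had ratios of 0.58, -0.70, -0.15 and -0.15 on arrays A to D as headed. Arrays A and B were the farthest from 0 and of opposite sign, and C and D were close to each other. Its fitted ratio moved from -0.10 ± 0.20 as headed to -0.39 ± 0.12 (unadjusted p = 0.0171) with the exchange, a 1.31-fold lower signal. It no longer passed without array A (-0.33, unadjusted p = 0.0668) or, with the exchange, without array B (-0.29, unadjusted p = 0.0699).

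SNRPB2, the B'' protein that binds the stem-loop of U2 RNA, had ratios of 0.46, -0.34, -0.18 and -0.22 as headed. Again array A alone was above 0. As headed its fitted ratio was -0.07 ± 0.14, and with the exchange it was -0.30 ± 0.08 (unadjusted p = 0.0117). Without array A it was -0.24 ± 0.10 (unadjusted p = 0.0565), no longer a call.

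SNRPG, a further protein of the Sm ring, had ratios of 0.06, -0.08, -0.85 and -0.08. The low value of array C carried the mean, the other 3 arrays being near 0. Its fitted ratio was -0.24 ± 0.16 as headed and -0.27 ± 0.15 with the exchange. Of the remaining SNRP genes, SNRPC, a U1 protein that helps to recognise the 5′ splice site, had -0.10 as headed and -0.19 ± 0.08 (unadjusted p = 0.056) with the exchange. SNRPA of U1, SNRPA1 of U2 and the Sm proteins SNRPB and SNRPD3 had fitted ratios between -0.13 and -0.03 as headed and between -0.14 and 0.09 with the exchange, and SNRPB was not above background in either RNA on any array.

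**Figure D2:**
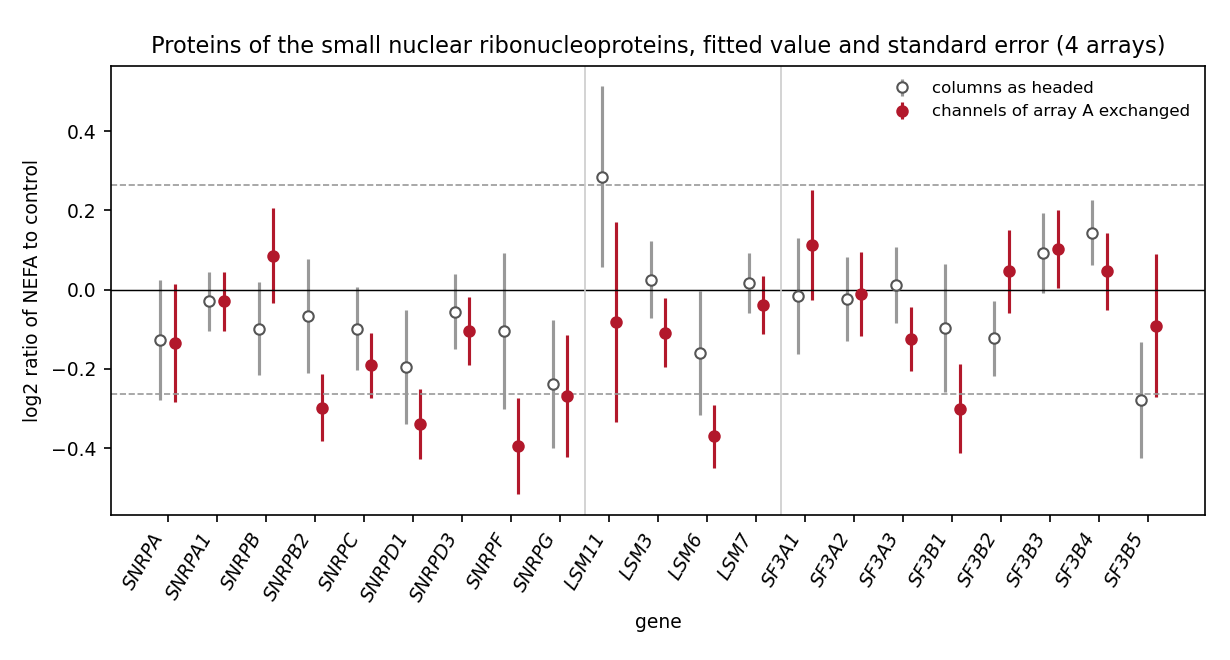
Fitted log2 ratio of NEFA to control with its standard error (4 arrays) for the SNRP, LSM and SF3 genes, with the columns as headed (open) and with the channels of array A exchanged (filled), with dashed lines at 1.2-fold. LSM6 moved from -0.16 to -0.37 and SNRPF from -0.10 to -0.39 with the exchange, while SNRPA1 stayed at -0.03.

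LSM proteins form rings like those of the Sm proteins, one on the U6 RNA in the nucleus and one in the cytoplasm that takes part in mRNA decay. LSM6 belongs to both rings and had the lowest p of the 68 genes with the exchange. Its ratios were 0.42, -0.45, -0.23 and -0.38 on arrays A to D as headed, from NEFA signals of 11.42, 11.13, 10.69 and 11.76 and control signals of 11.01, 11.58, 10.92 and 12.13 in log2 units. Arrays B, C and D were lower in NEFA and array A was higher by a like amount. The fitted ratio was -0.16 ± 0.16 as headed and -0.37 ± 0.08 (unadjusted p = 0.00318, adjusted p = 0.635) with the exchange, a 1.29-fold lower signal. Without array A it was -0.35 ± 0.10 (unadjusted p = 0.017).

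The second, dimmer probe of LSM6 had ratios of 0.35, -0.26, 0.18 and -0.13. It was below 0 on arrays B and D and above 0 on array C, where the brighter probe was below 0. Its fitted ratio was 0.03 as headed and -0.14 ± 0.11 with the exchange. This probe was not above background on all arrays in either RNA, so only 1 of the 2 probes bears fully on LSM6. LSM3 and LSM7, which are in both rings too, had fitted ratios of 0.02 and 0.02 as headed and of -0.11 and -0.04 with the exchange. LSM11, part of the U7 snRNP that processes histone mRNA, had 0.73, -0.62, 0.65 and 0.38, with array B against the other 3, but its probe was above background on only 1 array in each RNA.

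The SF3 proteins form the part of the U2 snRNP that holds the branch site of the intron. SF3B1, its largest subunit and the one that clamps the branch site, had ratios of 0.41, -0.22, -0.58 and 0.01. Arrays B and C were below 0, array D was at 0 and array A was above it. Its fitted ratio was -0.10 ± 0.16 as headed and -0.30 ± 0.11 (unadjusted p = 0.0368) with the exchange. This call was lost without array A (unadjusted p = 0.115), without array B (unadjusted p = 0.068) or without array C (unadjusted p = 0.131).

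SF3B5, a small subunit of the same complex, had -0.37, 0.26, -0.50 and -0.51, so that array B alone was above 0. Its fitted ratio of -0.28 ± 0.15 (unadjusted p = 0.105) as headed passed 1.2-fold without passing the test, and with the exchange it was -0.09 ± 0.18. SF3B4, which binds the pre-mRNA before the branch site, had 0.20, -0.01, 0.24 and 0.15, with a signal above background on 3 arrays in each RNA. Its fitted ratio was 0.14 ± 0.08 as headed and 0.05 ± 0.10 with the exchange. SF3A3, a subunit of the SF3A complex, was at 0.01 as headed and at -0.12 ± 0.08 with the exchange, when all 4 arrays were below 0. In all, 5 of the 8 SF3 genes were below 0 as headed and 4 of 8 with the exchange.

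The PRPF genes encode U5 and tri-snRNP proteins, U1 partners and the PRPF19 complex. PRPF8, the scaffold at the heart of the spliceosome, had the widest spread of the family, with -1.28, 1.19, -0.42 and -0.03 on arrays A to D. Arrays A and B were far from 0 in opposite directions, so that the mean as headed was -0.14 ± 0.36. With the exchange both were above 1 and the fitted ratio was 0.51 ± 0.31 (unadjusted p = 0.149), while arrays C and D, of the other dye orientation, remained below 0. PRPF8 lies outside the rule by which genes were named and was chosen after its values were seen.

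A term for the dye, added to the exchanged reading, turned PRPF8 into a call, with the same ratio of 0.51 and an unadjusted p = 0.00035. PRPF39, a U1-associated protein that acts on weak 5′ splice sites, had 0.49, -0.68, -0.23 and 0.13, and was called with this term as well (-0.31, unadjusted p = 0.00596). In that fit 2 members were higher and 6 were lower, 11.8% against 6.72% of all genes, of which 3% were higher and 3.71% lower. Among genes above background the share called was close for the members and for all genes. Of the 43 members above background, 2 were higher and 6 lower. Of all 2913 genes above background, 212 were higher and 313 lower. The 6 genes called with the exchange alone were all called again. The dye term left the fitted ratios of the members as they were and changed only their errors. The directions therefore could not change.

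PRPF19, the ubiquitin ligase that gives the PRPF19 complex its name, had 0.44, -0.58, 1.13 and 0.21. Array C was the highest and array B the only one below 0. The fitted ratio of 0.30 ± 0.26 as headed was the highest of the 68 genes and fell to 0.08 ± 0.28 with the exchange. PRPF38A, needed for the activation of the assembled spliceosome, had 0.47, -0.35, -0.17 and -0.03, and the exchange placed all 4 arrays below 0. Its ratio then was -0.25 ± 0.10 with an unadjusted p of 0.0398, short of 1.2-fold. PRPF40B, a partner of the U1 snRNP, was above background in 1 control RNA and in no NEFA RNA, so no ratio is given for it.

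The 3 SR protein genes did not pass the criterion in either reading. SRSF4 had ratios of -0.31, 0.00, -0.47 and 0.05 and SRSF6 had -0.15, 0.05, -0.14 and 0.02. For both genes arrays A and C were below 0 as headed and arrays B and D were at or above it. The mean ratio was -0.18 ± 0.11 for SRSF4 and -0.06 ± 0.08 for SRSF6 as headed, with 95% intervals from -0.46 to 0.09 and from -0.25 to 0.14. With the exchange it was -0.03 ± 0.13 for SRSF4 and 0.02 ± 0.08 for SRSF6. SRSF1 was not above background in either RNA on any array.

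The hnRNP proteins coat nascent transcripts and act on exon choice, mRNA stability and export. Of 10 HNRNP genes none was called in either reading, although 9 were above background on all 4 arrays. The median was -0.06 in both readings, and 8 of 10 genes as headed and 6 of 10 with the exchange were below 0. HNRNPU, which binds chromatin-associated RNA, had 0.01, 0.21, 0.28 and 0.15. It was the only member above background with the same sign on all 4 arrays as headed, with array A close to 0, and its fitted ratio of 0.16 ± 0.08 (unadjusted p = 0.0975) was 0.16 with the exchange too (unadjusted p = 0.101). The dimmer probe of HNRNPU had 1.08, -0.62, 0.53 and 0.93, so that array B opposed the other 3. Its fitted ratio was 0.48 ± 0.28 as headed and -0.06 ± 0.34 with the exchange.

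HNRNPA3, a relative of HNRNPA1 that binds mRNA, had 0.11, -0.10, -0.52 and -0.12 with its brightest probe, and array C was the lowest. Its fitted ratio was -0.16 ± 0.12 as headed and -0.22 ± 0.10 (unadjusted p = 0.0748) with the exchange. Another of its 3 probes, with 0.78, -0.78, -0.33 and -0.07, was called lower with the exchange (-0.49 ± 0.14, unadjusted p = 0.0127). The remaining probe, also above background, was near 0, at -0.02 as headed and at -0.05 ± 0.08 with the exchange. HNRNPM, which acts on alternative splicing, had 0.20, -0.08, -0.09 and -0.25, with array A alone above 0, and its fitted ratio was -0.05 ± 0.10 as headed and -0.16 ± 0.08 with the exchange. By their brightest probes, HNRNPA2B1, HNRNPA1, HNRNPD, HNRNPF, HNRNPH1 and HNRNPH3 lay between -0.22 and 0.01 as headed and between -0.15 and 0.04 with the exchange. Other probes differed. Of 5 HNRNPH3 probes, 4 were above 0 as headed (-0.03 to 0.59) and 3 with the exchange (-0.15 to 0.24). Of 4 HNRNPA2B1 probes, 2 were above 0 as headed (-0.22 to 0.10) and 3 with the exchange (-0.06 to 0.14).

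The 25 RBM genes are joined by their name and their RNA-binding motif and not by 1 function. RBM19, a nucleolar protein needed for the processing of ribosomal RNA, was the member with the highest ratio under the exchange. Its NEFA signal was 8.99, 9.69, 11.13 and 9.42 and its control signal was 9.95, 9.13, 9.85 and 9.28 in log2 units on arrays A to D as headed, which gave ratios of -0.96, 0.56, 1.28 and 0.15. Arrays B, C and D were above 0 and array A was far below it, and the 2 arrays farthest from 0 were C and A. The fitted ratio was 0.26 ± 0.33 as headed and 0.74 ± 0.18 (unadjusted p = 0.00676, adjusted p = 0.648) with the exchange, a 1.67-fold higher signal. Without array A it was 0.66 ± 0.22 (unadjusted p = 0.0268). RBM19 had 1 probe, so no second probe bears on it.

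RBM24, known in muscle as a regulator of splicing, had ratios of -0.33, -0.03, -0.43 and -0.18 as headed, all below 0. Its fitted ratio was -0.24 ± 0.09 (unadjusted p = 0.041, adjusted p = 1.00), short of 1.2-fold, but its signal was above background on only 1 array in the NEFA and on 2 in the control RNA. With the exchange it was -0.08 ± 0.13. RBM7, a subunit of the complex that targets nuclear RNA for decay, was above background in 1 control RNA and in no NEFA RNA. RBM34 had 0.34, -0.13, 0.02 and -0.20 and a fitted ratio of 0.01 as headed and of -0.16 ± 0.09 with the exchange.

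RBM15B, a subunit of the complex that places N6-methyladenosine on mRNA, had 0.10, -0.29, 0.25 and 1.10. The high value of array D carried the mean of 0.29 ± 0.22 as headed, and the ratio was 0.24 ± 0.23 with the exchange. RBM15B passed 1.2-fold but not the test and lies outside the rule for named genes. RBM18 had -0.59, 1.02, -0.67 and -0.47, array B being opposed to the other 3, and it was chosen after its values were seen. Its fitted ratio was -0.18 ± 0.29 as headed and 0.12 ± 0.29 with the exchange. Among other RBM genes above background, RBM10, RBM39, RBM5, RBM17, RBM26 and RBM42, several of which regulate splicing, lay between -0.22 and 0.00 as headed and between 0.00 and 0.14 with the exchange. RBM6, also above background, was at -0.09 as headed and at -0.14 with the exchange. Of the 25 RBM genes 13 changed sign between the readings, as did 3 of 4 LSM genes and 3690 of all 9962 genes.

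**Figure D3:**
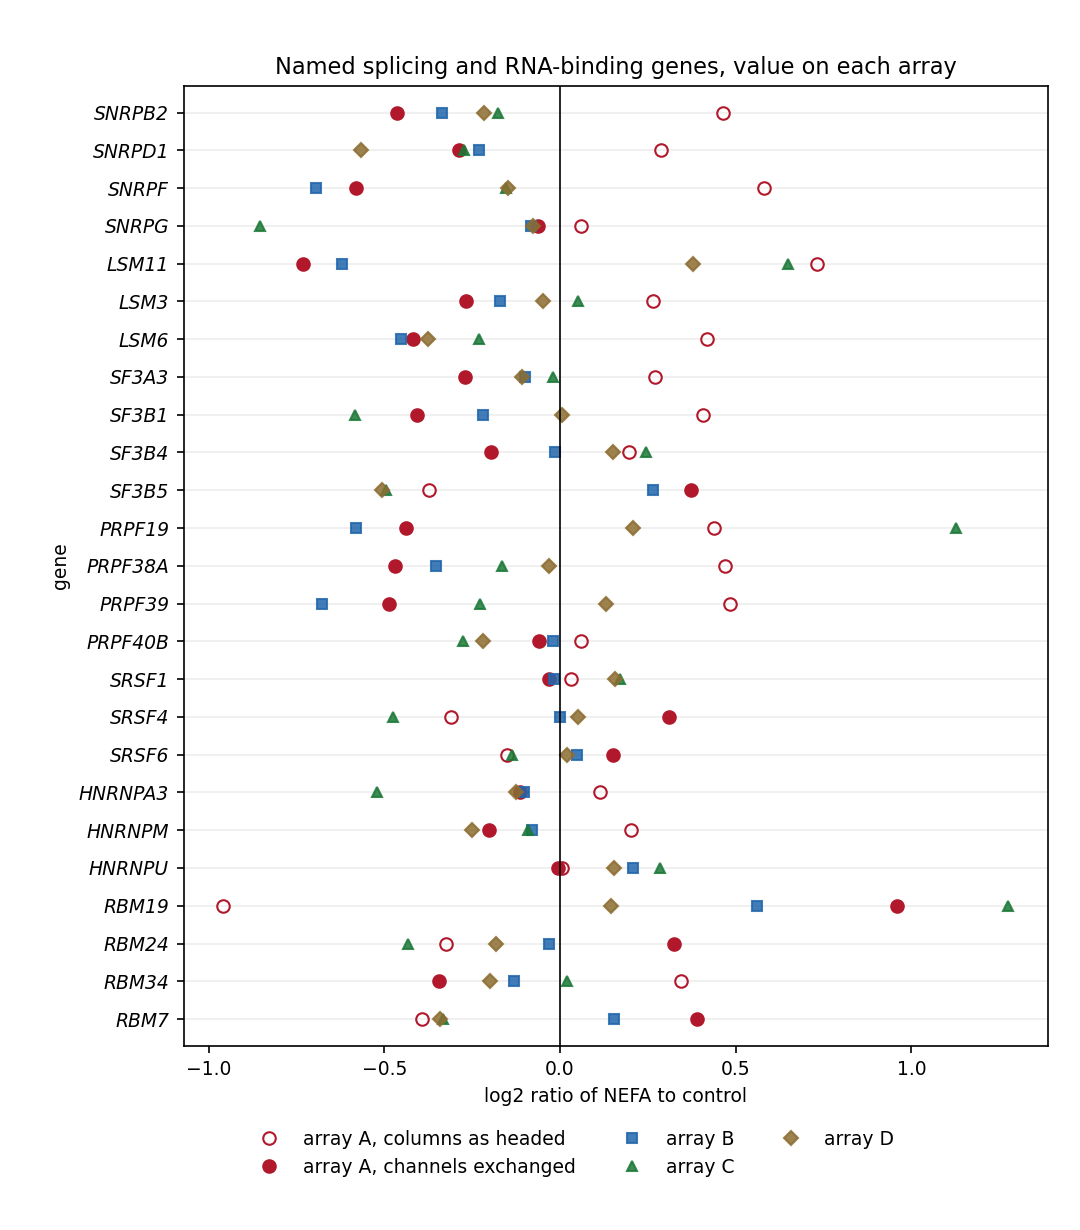
Log2 ratio of NEFA to control on each array for the 25 genes named by rule, with array A shown as headed (open circles) and with its channels exchanged (filled circles). For LSM6, SNRPD1, SNRPF and SNRPB2 arrays B, C and D lie below 0 and array A as headed lies above it. SRSF1, PRPF40B, RBM7, RBM24 and LSM11 were at or near background.

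The 3 arrays that do not depend on the reading of array A gave 3 calls among the members. LSM6 and SNRPD1 were lower and RBM19 was higher, which is 4.41% of the members compared with 3.12% of all genes (0.733% higher and 2.39% lower). Arrays A, C and D as headed, without array B, gave 5 higher and 7 lower members (17.6%) against 14.7% of all genes (7.3% higher and 7.44% lower), and none of them was among the 6 called with the exchange. In that set LSM11, PRPF19, RBM12B, RBM15 and RBM38 were higher, and HNRNPA2B1, PRPF8, RBM10, RBM18, RBM24, RBM7 and SF3B5 were lower. Of these, LSM11 (0.59, unadjusted p = 0.00129) and RBM18 (-0.58, unadjusted p = 0.000607) had the smallest p. LSM11, RBM12B, RBM15, RBM38, RBM24 and RBM7 were not above background on all arrays in either RNA. The genes called therefore depended on whether array A as headed or array B was kept. In the exchanged reading with a dye term, red over green had the sign of the call for every member called without array B. It ran from -0.73 (PRPF8) to -0.23 (RBM24) for the lower and from 0.30 (RBM12B) to 0.67 (RBM38) for the higher members. This term had r = 0.74 with the ratios as headed over the members and 0.76 over all genes. The part of the dye in these calls was not tested. Over the members, the ratios of arrays A and B as headed had r = -0.87 (68 genes of the same 2 arrays), and those of C and D had r = 0.42. Array A as headed had r = 0.22 with C and 0.20 with D, and array B had r = -0.29 with C and -0.36 with D.

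LSM6, SNRPD1 and RBM19 were also called with the exchange whichever of arrays B, C or D was left out. LSM6 ranged from -0.42 to -0.34, SNRPD1 from -0.38 to -0.26 and RBM19 from 0.56 to 0.93 over these fits. In all, 4, 6 and 9 members were called without arrays B, C and D (5.88%, 8.82% and 13.2%), against 3.73%, 6.77% and 5.19% of all genes. The shares in the fits that leave out an array are not limited to genes above background, where 63.2% of the members and 29.2% of all genes were. In the exchanged reading of all 4 arrays the shares above background were 14.0% and 11.8%. With the columns as headed, 0 members were called without array C or without array D, against 0.271% and 0.301% of all genes. With 4 arrays an exact two-sided permutation of signs on 1 gene could not go below p = 0.125, so the calls rest on limma, which borrows the error of all probes.

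The 68 genes had 112 probes, of which 53 were above background on all arrays in at least 1 RNA, and 24 genes had more than 1, with 68 probes among them. All probes of a gene had 1 sign for 10 of these 24 genes as headed and for 12 with the exchange, dim probes included. No probe was called as headed (0.75% of all probes were), and 8 of 112 were called with the exchange, compared with 3.63% of all probes. Besides the 6 genes above these were the second probe of HNRNPA3 and a second probe of RBM42, which had -0.26, 0.26, 0.24 and 0.48 and a fitted ratio of 0.31 ± 0.08 (unadjusted p = 0.00882) with the exchange, while the brightest probe of RBM42 was at 0.05. This second probe of RBM42 was above background in only 4 of the 8 signals. Both genes were named after their values were seen. The share of 3.63% is over all probes, bright and dim, and members were above background more often than genes in general.

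Genes of the splicing and RNA pathways outside these families were taken from 5 lists. As headed, 1 of 88 was called, beside 0.803% of all genes, and the 4 called with the exchange stand beside 4.17%. UPF1, the helicase of nonsense-mediated decay, had 0.14, 0.26, 0.23 and 0.47 on arrays A to D, all above 0, and a fitted ratio of 0.28 ± 0.09 (unadjusted p = 0.0189). With the exchange it was 0.21 ± 0.11 (unadjusted p = 0.116) and no longer called, and 4 other genes of the 88 were. Of 30 measured core spliceosome genes of 50 listed, none was called as headed and 1 was higher with the exchange, PPIL2, a cyclophilin of the spliceosome (0.28 ± 0.08, unadjusted p = 0.00936). Of 23 of 35 splicing regulators and SR kinases, none was called as headed, and with the exchange EWSR1, an RNA-binding protein that couples transcription to splicing, was higher (0.28 ± 0.11, unadjusted p = 0.042) and CLK4, a kinase of SR proteins, was lower (-0.35 ± 0.10, unadjusted p = 0.0119).

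Of 14 of 22 exon junction complex and mRNA export genes, 1 was lower with the exchange, THOC7 of the export complex TREX (-0.30 ± 0.08, unadjusted p = 0.00898). Of 16 listed genes of snRNP assembly 10 were measured, of 12 decay partners of the LSM ring 11 were, and none of them was called in either reading. The medians of the 5 lists lay between -0.08 and 0.01 as headed and between -0.01 and 0.07 with the exchange. The genes of snRNP assembly, which load Sm rings onto RNA, had a median of -0.08 as headed, beside -0.10 for the SNRP genes, and of 0.07 with the exchange, beside -0.19 for the SNRP genes. These differences were not tested.

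Markers of GCs and of cells that can accompany them were read on the same arrays. Of 8 measured granulosa markers of 18 listed, 4 were above background as headed (AMH, NR5A1, NR5A2 and VCAN), 2 were with the exchange (AMH and VCAN), and FSHR, CYP19A1 and FOXL2 were not measured here. None of 2 theca, 5 leukocyte and 3 endothelial markers was above background, while ACTA2 and DCN of 5 smooth muscle and fibroblast markers and GDF9 of 5 oocyte markers were. Signals of each list were summed before the log2 was taken, so the brightest marker weighs most. As headed, the granulosa sum was 13.0 to 14.3 in NEFA and 12.5 to 13.8 in control RNA. The sum of the smooth muscle and fibroblast markers was 15.8 to 16.2 in NEFA and 16.0 to 16.2 in control RNA. That of the oocyte markers was 10.5 to 10.8 in NEFA and 10.5 to 10.7 in control RNA. The ranges of the sums overlapped between the groups for each of the 6 marker lists. These ranges run over the 4 arrays and leave out the pairing by array, so their overlap does not show that the groups were alike. CNN1, a smooth muscle marker that was not above background, was the only marker called with the exchange, and it was higher (0.34, unadjusted p = 0.0417). With the dye term added, the granulosa markers GJA1 (0.35, unadjusted p = 0.0324) and VCAN (0.27, unadjusted p = 0.00737) were called higher as well. The part of these markers in the results was not tested.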

How the data were processed

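RNA of 4 NEFA and 4 control cultures was amplified by the authors, labelled with Cy3 and Cy5, hybridised in pairs to 4 EmbryoGENE porcine arrays and scanned, and the spots were extracted with Array-Pro. The deposited intensity values are the mean raw intensity and the mean local background of each spot, with no normalization, beside a mark for ignored spots. A deposited table by the authors holds log2 ratios (the base was taken from the spread of the values), and its direction and centring are not stated. Its 43794 row numbers are those of the array's expression spots, but its values had at most r = 0.00801 in size with the scanner ratios of the same spots. It was used only for this check, and gene names were joined by spot number. The 55 ribosomal protein probes so named had a median log2 intensity of 12.6 against 8.08 for all 13146 named probes, and 30648 probes had no single gene name. The array build is not stated, so no coordinates are given.

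Of 45220 spots, 43794 were analysed in R 4.3.3 with limma 3.58.1. Normexp with an offset of 50 replaced the background subtraction that the methods name. Loess, in which control and ignored spots had no weight, was applied within arrays, and quantile normalization followed between arrays. Ignored spots (60 to 121 probes per array) were set to missing. The model had 1 coefficient, the ratio of NEFA to control with the dye orientation as its sign, tested two-sided with empirical Bayes moderation over all probes. The pairing comes from the array, which the NEFA and the control RNA of a replicate share. A signal was above background when it was more than 2 SD over the mean of 153 negative control spots, taken per array and dye, and 23.9% to 42.7% of probes did so. With 4 arrays, their number limits the precision. The replicates came from different days, so errors are those between replicates.

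The members and the gene lists were chosen with earlier results of these data known. Genes were named by a rule, namely members past the criterion in either reading, the 2 with the smallest p of each family in each reading, the 3 largest rises and falls among members above background with the same sign on all 4 arrays, and genes of the related lists past the criterion. Alternatives were array A with its channels exchanged, a dye term, both together, other background corrections and normalizations, probes above background only, no replicate block, a robust prior with an intensity trend, probes averaged per gene and each replicate left out. Leaving out a replicate from the exchanged reading was chosen after seeing the data. The procedure was tested on simulated data with known changes.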

Additional observations from a re-analysis of the deposited data

Results flagged for a closer look

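Among the 25 members named by rule, 2 had a single array far from the other 3 with the columns as headed, measured by the gap to the nearest array over the whole range. Chance marks about 1 in 20 groups in this way. RBM7 was at 0.15 on array B, while the other arrays lay between -0.39 and -0.33 (gap over range 0.893), and its probe exceeded background in 1 control RNA only. After the exchange of array A, arrays A and B were both above 0. SNRPG was at -0.85 on array C, while the other arrays lay between -0.08 and 0.06 (gap over range 0.844), and its signal was above background on all arrays in both RNAs. The probe of SNRPG is the only one of that gene, so no second probe bears on the value of array C.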

How the results depend on the processing

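The count of 0 higher and 0 lower members as headed was the same with a dye term, with background subtraction or no background correction, with a median in place of loess, without normalization between arrays, with probes above background only, with an intensity trend, and with the mean of all probes. NEFA and control RNA were paired by array, and without this pairing, that is with no replicate block, 0 members were higher and 0 lower as well. The exchange of array A gave 1 higher and 5 lower, and with a dye term 2 higher and 6 lower. Leaving out 1 replicate gave 0 to 5 higher and 0 to 7 lower as headed, and without replicate 1 it gave 1 and 2. In the exchanged reading it gave 1 to 2 higher and 3 to 7 lower (3, 4 and 7 without replicates 2, 3 and 4). The median of the members ran from -0.07 to -0.01 over the settings tried on it, which did not include leaving out a replicate from the exchanged reading, within the spread between arrays (SD 0.06).

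Of the 88 related genes, 1 was higher and 0 were lower as headed. The exchange gave 2 and 2 (4.17% of all genes were called), with a dye term 8 and 2 (6.72%), and leaving out 1 replicate gave 0 to 7 in either direction (14.7% of all genes were called without replicate 2). The exchange lost UPF1. It was also lost, leaving 0 higher, without replicate 3 and with background subtraction, no background correction, probes above background only, no replicate block, an intensity trend or the mean of all probes.

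Some single members changed sign. With the exchange LSM11 went to -0.082, LSM3 to -0.11, RBM34 to -0.16, SF3A3 to -0.12 and SRSF6 to 0.020, and with the mean of all probes RBM34 went to -0.0068. Leaving out 1 replicate as headed, the ratio ran from -0.14 to 0.011 for HNRNPM, from -0.055 to 0.090 for LSM3, from -0.18 to 0.090 for PRPF38A, from -0.26 to 0.13 for PRPF39, from -0.084 to 0.66 for RBM19, from -0.10 to 0.078 for RBM34, from -0.076 to 0.051 for SF3A3, from -0.26 to 0.065 for SF3B1, from -0.24 to 0.024 for SNRPB2 and from -0.33 to 0.093 for SNRPF. The cause was not tested. Of the 68 members 25 were not above background on all arrays in either RNA, which limits what their ratios can show.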
